A study of Mus musculus with 7 samples.

Results

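The genes described here encode the subunits of the RNA exosome, in follicular helper T cells of lupus-prone mice after a block of the type I interferon receptor. The members were 9 named genes, Exosc1, Exosc2, Exosc3, Exosc4, Exosc5, Exosc7, Exosc8, Exosc9 and Exosc10. Their peaks were selected on the gene name in a deposited list of 6395 ATAC-seq peaks, in which 3 of the 9 had a row with 1 peak each and 6 had none. Every peak in that list had been called for higher coverage on the anti-IFNAR1 side, and Exosc8 drew attention by its fold. Presence in the list, pileup, fold and q are therefore the values by which these genes were chosen, and they are given below as a description with no test. Exosc6, the remaining subunit of the ring, stood outside the 9 and also had a row, and its values are given beside them.

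Splenic T cells had been sorted as CD4 and CD44 positive and GITR negative, with low PSGL-1 and high levels of CXCR5 and PD-1. All mice were 5-month-old B6/Sle1.Yaa animals, so the Sle1 locus and the Yaa translocation were carried by both groups. The 4 anti-IFNAR1 samples (an antibody that the treatment label spells anti-IFNA1) and the 3 anti-rat IgG control samples followed 4 weeks of treatment at 2 doses a week. ATAC-seq tags open chromatin with a transposase, and a peak marks a place where many tagged fragments overlap. The list gives 1 value per peak for the comparison of both sides. Single mice were not analysed here, and the spread from mouse to mouse is therefore missing from every value. Of 10 Tfh and T cell marker genes, 7 had a listed peak (Bcl6, Pdcd1, Cd4, Cd3e, Tcf7, Maf and Sh2d1a), beside 21.1% of all protein-coding genes. Cxcr5, Icos and Il21 had none, and a list of gains cannot show that these 3 were closed.

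The RNA exosome is a complex that degrades or trims RNA from its 3′ end. A ring of RNase PH-like subunits (Exosc4 to Exosc9) and a cap of RNA-binding subunits (Exosc1, Exosc2 and Exosc3) form a channel, and the nucleases that cut the RNA, DIS3 and EXOSC10, sit on this core. In the nucleus it processes ribosomal RNA and removes faulty and short-lived transcripts, and in the cytoplasm it shares messenger RNA decay with the decapping pathway. T cells rely on regulated decay of cytokine transcripts that carry AU-rich elements.

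The 4 promoters that a subunit gene shares with a neighbour on the opposite strand frame the results, and the bases that lie between the paired genes are shown for them (RefSeq, GRCm38.p6, the assembly behind mm10; at most 250 bases before the start, 5′ to 3′ on the subunit's strand). Capitals mark matches to the SP/KLF, CCAAT and E-box letters given further below. A listed peak covered the bases shown for Exosc8. The Exosc1 peak lay inside the gene, ended 155 bp short of the Zdhhc16 start and did not reach the bases shown. Exosc7 and Exosc5 had no listed peak.
Exosc8, toward Alg5, chr3:54735365-54735538, minus strand: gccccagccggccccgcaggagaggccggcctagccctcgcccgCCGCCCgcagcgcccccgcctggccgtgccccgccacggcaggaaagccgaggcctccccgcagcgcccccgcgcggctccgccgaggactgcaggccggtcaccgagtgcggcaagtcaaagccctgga
Exosc1, toward Zdhhc16, chr19:41933424-41933444, minus strand: agatctgtcccggggcagcct
Exosc7, toward Zdhhc3, chr9:123113195-123113230, plus strand: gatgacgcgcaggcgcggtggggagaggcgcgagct
Exosc5, toward Bckdha, chr7:25658903-25659152, plus strand: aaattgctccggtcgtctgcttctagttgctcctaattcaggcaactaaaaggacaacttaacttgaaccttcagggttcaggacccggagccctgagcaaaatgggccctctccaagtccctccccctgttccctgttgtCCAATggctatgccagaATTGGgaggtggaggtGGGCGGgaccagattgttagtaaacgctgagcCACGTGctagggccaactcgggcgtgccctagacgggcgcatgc

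Of the 9 members, 33.3% had an assigned peak, and with Exosc6 it was 4 of 10. Among all 21900 protein-coding genes of the RefSeq table the share was 21.1%. The count among the members is small, and nothing particular to them is read from it. A second count used a listed peak anywhere within 1 kb of a RefSeq gene start in place of the assigned name. Of the 8 members with a start, those with a peak were again Exosc1, Exosc8 and Exosc9. The share was 23.4% of the 17493 protein-coding genes with a start in the tables. The Exosc9 start was supplied from its own row in the list, so its place in this count was fixed beforehand. Exosc4, which had no start, was left out.

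The ring subunit Exosc8 had the strongest peak of the family. On chromosome 3, from 54734789 to 54735855 (mm10), 71 anti-IFNAR1 fragments overlapped at the summit, a pileup of 20.07 after the caller had scaled that side down to the control depth. The control side had 0 fragments at the site. It had at most 1 in the surrounding 1 kb and 11 in the surrounding 10 kb, and those 11 set the background of 0.26 fragments. The resulting fold over background was 16.7, with a q of 2.17e-26. Pileup, fold and q are the authors' own values for each peak, and the fragments were worked back from them. By fold Exosc8 stood at rank 5 of the 6395 peaks and at rank 4 of the 4632 peaks in the transcription start site (TSS) section, and by q at rank 6.

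Exosc9, a ring subunit, had a peak with lower coverage than that of Exosc8. It lay on the same chromosome from 36552163 to 36552521, with 33 anti-IFNAR1 fragments, a pileup of 9.33 and a fold of 6.05 (q = 1.58e-05). Its background of 0.708 equals 3 control fragments in 1 kb, and being under 1 it leaves 0 control fragments at the site itself. Its fold ranked 1397 and its pileup 4166 in the list.

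Exosc1, a cap subunit that binds RNA, had a peak on chromosome 19 from 41932766 to 41933290. The summit carried 38 anti-IFNAR1 fragments against 1 control fragment at the site. The pileup was 10.7 and the fold 5.87 (q = 2.85e-05). Exosc1 and Exosc9 thus lay close together in coverage and fold. Both folds were near the upper quartile of the list, 5.86, and both pileups were under the list median of 11.6.

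Exosc6, the ring subunit outside the 9, had a peak on chromosome 8 from 111056323 to 111056716. With 55 anti-IFNAR1 fragments its pileup of 15.6 was above the list median, but 3 control fragments stood at the site, and the fold was 4.14 (q = 0.000245). That fold was under the list median of 4.74 and ranked 4378. Among the listed subunits the order by pileup was Exosc8, Exosc6, Exosc1 and Exosc9, whereas the order by fold was Exosc8, Exosc9, Exosc1 and Exosc6.

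**Figure D1:**
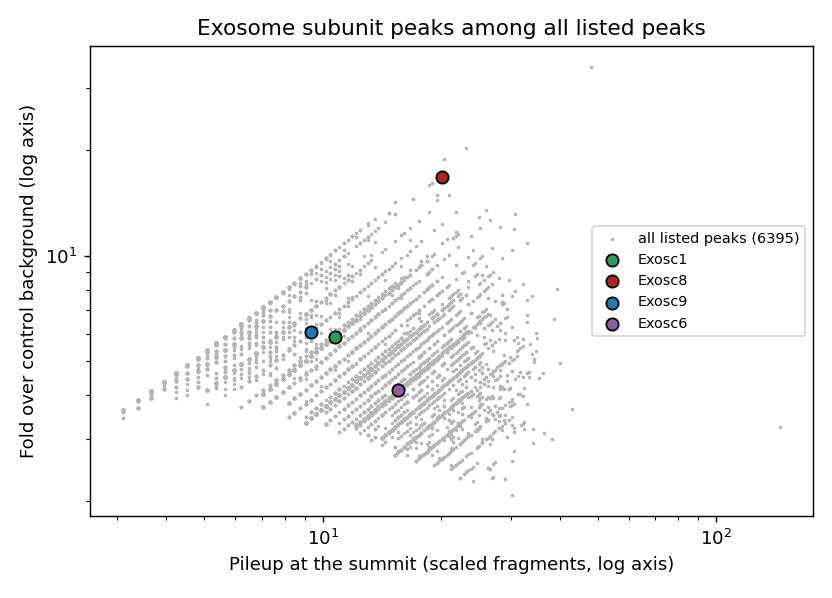
Each grey point is 1 of the 6395 listed peaks, placed by pileup at the summit (x, scaled fragments) and fold over the control background (y), both on log axes. The coloured points are the peaks of Exosc8, Exosc9, Exosc1 and Exosc6. Exosc8, at a fold of 16.7, lies on the upper edge of the cloud for its coverage, and the other subunits lie inside it between 4.14 and 6.05.

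Exosc8 differed from the other subunits in fold more than in coverage. Its pileup was 1.87 times that of Exosc1, 2.15 times that of Exosc9 and 1.29 times that of Exosc6, and by pileup it ranked 760 in the list. The other part of the difference lay on the control side. The Exosc8 background was 17.5% of the list median of 1.49 fragments.

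A low background was not rare in the list as a whole. Of the 6395 peaks, 2021 (31.6%) had one under 1 fragment, and 1127 had one at or under that of Exosc8. It was uncommon among peaks of like coverage. Of 645 listed peaks with 64 to 78 anti-IFNAR1 fragments (within 10% of Exosc8, a window set after its value was known), 16 had a background under 1 fragment, and 5, Exosc8 included, had one of 0.26 or less. Their median fold was 4.50, with a range of 2.47 to 18.9, and their median background was 3.78. Only 2 of the 645 had a higher fold than Exosc8. At like coverage the fold largely follows from the background, so these counts restate the fold by which Exosc8 drew attention. The TSS peaks of protein-coding genes next above it by fold were those of Bfar (17.3), Dtx4 (18.9) and Kdm3b (20.3), and those next below were Rpl7 (15.9), Tmem147 (14.9) and Suv420h1 (14.9). These 6 peaks held 66 to 82 anti-IFNAR1 fragments over backgrounds of 0.132 to 0.472, close to the values at Exosc8. Bfar encodes an apoptosis regulator, Dtx4 a ubiquitin ligase, Kdm3b and Suv420h1 histone-modifying enzymes and Rpl7 a ribosomal protein, and no shared role is drawn from their rank.

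The size of the Exosc8 fold rests on very few control fragments. With 1 control fragment at the site, as at Exosc1, the same 71 fragments would have given a fold of 10.5 and rank 77. With 2 the fold would have been 7.02, at rank 703, and with 3, as at Exosc6, 5.27, at rank 2317. This arithmetic was added after the values had been seen.

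Few control fragments stood at the site of any of the 4 subunits. The depth of the anti-IFNAR1 side was 3.54 times that of the control, and ratios at the site are divided by that factor. Against the limit that a count of 0 allows, 3 control fragments at the site, coverage was at least 6.69-fold higher at Exosc8 and at least 3.11-fold higher at Exosc9. These floors allow for the control count only and hold no counting error of the anti-IFNAR1 fragments. The exact 95% intervals, which hold both, began lower, at 5.30 for Exosc8 and 2.39 for Exosc9, and had no upper limit. At Exosc1 the ratio was 10.7 (exact 95% interval 1.82 to 435) and at Exosc6 it was 5.18 (1.68 to 25.9). The intervals describe the counting error of the fragments only, and which libraries supplied these fragments is not stated. Since the peaks were listed for their high coverage, the ratios are tilted towards a gain, and no order of the subunits is read from them.

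**Figure D2:**
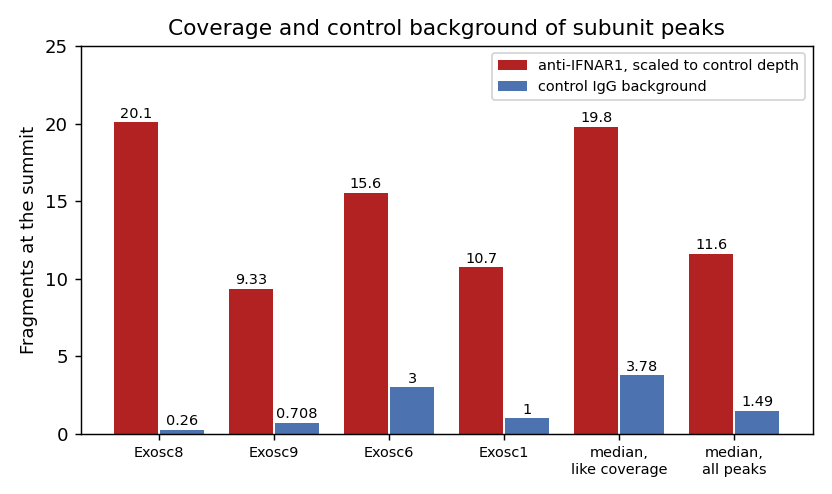
Bars give fragments at the summit for each subunit peak: the anti-IFNAR1 pileup scaled to control depth (red) and the control IgG background that the caller used (blue). The pairs on the right are medians of the 645 peaks of like coverage to Exosc8 and of all 6395 peaks, with no error bars because the list holds 1 value per peak. Exosc8 has the tallest red bar of the subunits (20.1) and the lowest blue bar (0.26), where peaks of like coverage have a median background of 3.78.

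All 4 peaks lay at gene starts, and the file placed each of them in the TSS section, which held 72.4% of the list. The Exosc8 peak, 1066 bp long, was wider than the list median of 539 bp and than the median of 718 bp among peaks of like coverage, and 703 listed peaks were longer. It reached from 491 bp upstream of the RefSeq start of Exosc8 to 575 bp into the gene, with the summit 32 bp inside. The file measured its distance from a shorter transcript, Exosc8-007, a retained-intron form whose start lay 451 bp from the peak. Measured from the RefSeq start at 54735364, the peak covered the start itself.

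The other peaks were narrower and sat differently. At Exosc1 the peak began 24 bp inside the gene, counted from the start in the RefSeq promoter table, and ran to 548 bp, with the summit at 61 bp. At Exosc9 it lay upstream, from 443 to 85 bp before the start, with the summit 219 bp before it. At Exosc6 it ran from 16 bp before the start to 377 bp into the gene, with the summit 5 bp inside. The summits of the 4 peaks were thus all within 219 bp of a start, and those of Exosc8, Exosc1 and Exosc6 were inside the gene.

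**Figure D3:**
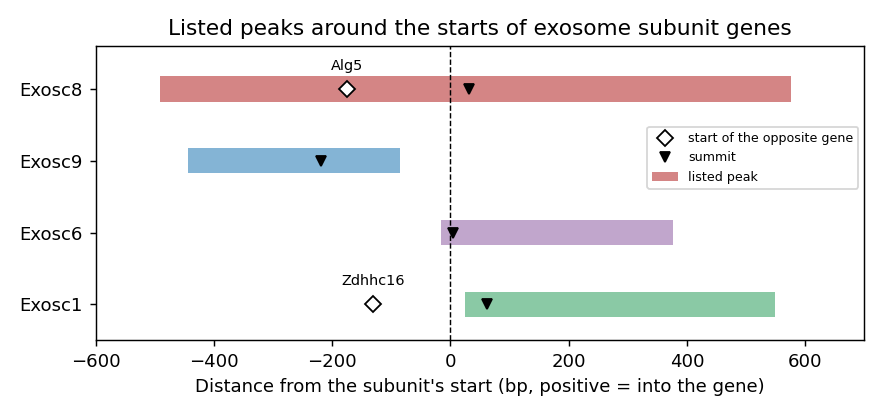
Horizontal bars show the extent of each listed peak relative to the start of the subunit gene (x, bp, positive values into the gene), triangles mark the summit and diamonds the start of a neighbour on the opposite strand. The Exosc8 peak spans both its own start and that of Alg5, 175 bp away, while the Exosc1 peak ends 155 bp short of the Zdhhc16 start.

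Several subunit genes share a promoter. Of the 8 members with a start in the tables, 4 had the start of another protein-coding gene within 1 kb, and in all 4 cases the neighbour was on the opposite strand. The share over all 17493 genes was 9.99%. It was 12.2% among the 3779 genes with an assigned peak and 9.38% among the 13714 without. The 4 members were Exosc7, whose start lay 37 bp from that of Zdhhc3, Exosc1, 131 bp from Zdhhc16 (21 bp lie between the full gene spans), Exosc8, 175 bp from Alg5, and Exosc5, 392 bp from Bckdha. Of these, Exosc1 and Exosc8 had a listed peak and Exosc7 and Exosc5 did not, and of the 4 other members with a start in the tables Exosc9 had a peak.

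The Exosc8 peak was the only one of the 4 with the starts of 2 protein-coding genes beneath it. Alg5, on the other side, encodes a glycosyltransferase that makes dolichol-phosphate glucose for protein glycosylation. It had no peak assigned to it, because the file gives each peak 1 gene, and whether the coverage belongs to Exosc8, to Alg5 or to both cannot be told apart. The same holds in part for Exosc1, whose neighbour Zdhhc16, a palmitoyltransferase gene, had no assigned peak either. Zdhhc3, also a palmitoyltransferase gene, and Bckdha, a gene of branched-chain amino acid breakdown, had none.

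The bases between Exosc8 and Alg5 are rich in G and C. Of the 174 bases 79.9% are G or C, and they hold 23 CG pairs. A stretch of 16 bases, cccgcagcgcccccgc, stands there 2 times, beginning 127 and 73 bases before the Exosc8 start. A repeat of that length without overlap was held by 1.73% of the 21263 promoters of protein-coding genes in the table (300 bases each), and this feature was picked out after the sequence had been seen. Over its whole 300-base promoter, from 250 bases before the start to 50 after it, Exosc8 had 75.7% G and C, the highest of the 7 members with an entry. Exosc7, which had no row, reached 75.3%, and the lowest was Exosc2 with 48.0%. Exosc10 has 2 starts in the table, at 148558419 and 148558713 on chromosome 4, with 53.0% and 70.0%. The median over the 7 was 57.3% with the first of them and 65.7% with the second, beside 56.3% over all promoters.

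Altogether 10 short motifs were searched on both strands of these windows. The SP/KLF letters GGGCGG stood in 6 of 7 members, all but Exosc2, with the first start of Exosc10 and in 5 with the second, and in 46.2% of all promoters. Exosc6, outside the 7, was without them and, of the 10 motifs, held only the STAT site given below. The 1 match between Exosc8 and Alg5 begins 130 bases before the Exosc8 start. CCAAT stood in Exosc1, Exosc2 and Exosc5 (38.2% of all promoters), and the E-box CACGTG in Exosc5 alone of the 7 (7.84%). The NRF1 core GCGCATGCG was found in Exosc5, where it crosses the start, and at the first start of Exosc10, against 2.35% of all promoters. The ETS letters CCGGAAG stood in Exosc3 (11.6%) and the YY1 letters AANATGGC in Exosc2 (6.37%), and both stood at the second start of Exosc10.

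Letters read by interferon and activation factors were searched as well. The interferon-stimulated response element, searched as GAAANNGAA, and the AP-1 letters TGANTCA were in none of the 7, and in 8.15% and 6.99% of all promoters. The STAT site TTCNNNGAA was in Exosc2 (7.69%), which had no listed peak, and in Exosc6, which had one. TATAAA was in none of the 7 and in 12.6% of all promoters. A match describes letters only, and a missing match says nothing about the factor.

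The 6 members without a row had no listed peak within 3 kb of the gene. They were the cap subunits Exosc2 and Exosc3, the ring subunits Exosc4, Exosc5 and Exosc7, and the nuclear exonuclease gene Exosc10. Both the cap and the ring thus had members with and without a row.

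The nearest listed peaks to these 6 genes belonged to other genes. They lay 6.96 kb from Exosc2 (Gm13427, fold 3.75), 8.37 kb from Exosc10 (Srm, 4.14), 12.9 kb from Exosc4 (Cyc1, 4.46), 19984 bp from Exosc5 (Tgfb1, 3.08), 21.6 kb from Exosc3 (Dcaf10, 5.80) and 307 kb from Exosc7 (Tcaim, 5.91). Coverage at the starts of the 6 was not analysed here, and having no row does not mean closed chromatin. Among listed peaks, the fewest anti-IFNAR1 fragments were 25 with 1 control fragment at the site, 32 with 2 and 43 with 3, so a promoter open on both sides needed that much coverage or more to enter the list. Sites that lost coverage after anti-IFNAR1 were not analysed here either.

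The further genes of RNA decay were also described by their counts. Of 73 further genes of RNA decay, 35 (47.9%) had an assigned peak, against 21.1% of protein-coding genes. Many of these genes are active in most cells, but expression was not measured here, and whether this bears on the share was not tested. The median fold of the 35 was 4.88, close to the list median of 4.74, and 18 were above that median. None reached the fold of Exosc8.

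Among the nucleases, Dis3, which encodes the processive exonuclease of the nuclear exosome, had a TSS peak with 54 fragments, a background of 2 and a fold of 5.42. Its cytoplasmic relatives Dis3l and Dis3l2 had no row. Of 15 genes for nuclear cofactors, 7 were listed. They included Zfc3h1, a scaffold that brings polyadenylated transcripts to the exosome, with a fold of 7.40, and Ncbp2 of the cap-binding complex, with 7.38. Tent4a and Zcchc7, both linked to the tailing of exosome substrates, had the same fold of 4.70. The helicase gene Mtrex, and Zcchc8 and Rbm7, which form the nuclear exosome targeting complex with it, had no row.

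In the cytoplasm, none of 5 genes of the SKI complex and ribosome rescue had an assigned peak, although a listed peak lay within 1 kb of the Ttc37 start. Nvl, Elavl1 and Cnot9, in other groups, likewise had no assigned peak but a listed peak within 1 kb of a start. Of 6 genes for proteins that bind AU-rich or structured messenger RNA, 3 were listed, Zfp36 (6.63) and Zfp36l2 (4.25), which shorten the life of cytokine transcripts, and Khsrp (5.67). The group for removal of the poly(A) tail before decay had the highest share, 12 of 17. It holds deadenylase genes, other subunits of their complexes and partner proteins. Among its listed genes, Tob1, Btg1 and Btg2 are partners and not deadenylases. Their folds ran from 3.84 at Cnot1 to 9.13 at Cnot6. The decapping and XRN genes had 6 of 17, from 3.91 at Xrn2 to 5.65 at Ddx6, and the nonsense-mediated decay genes 6 of 10, among them Upf2 with 4.49 and Smg1 with 2.69. The list placed the Smg6 peak, with 12 fragments, in intron 7, 29373 bp from a TSS. In these last groups the peaks of Edc3, Smg1, Smg6 and Smg9 missed a q of 0.01 (−log10 q of 1.98, 1.46, 1.46 and 1.86).

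**Figure D4:**
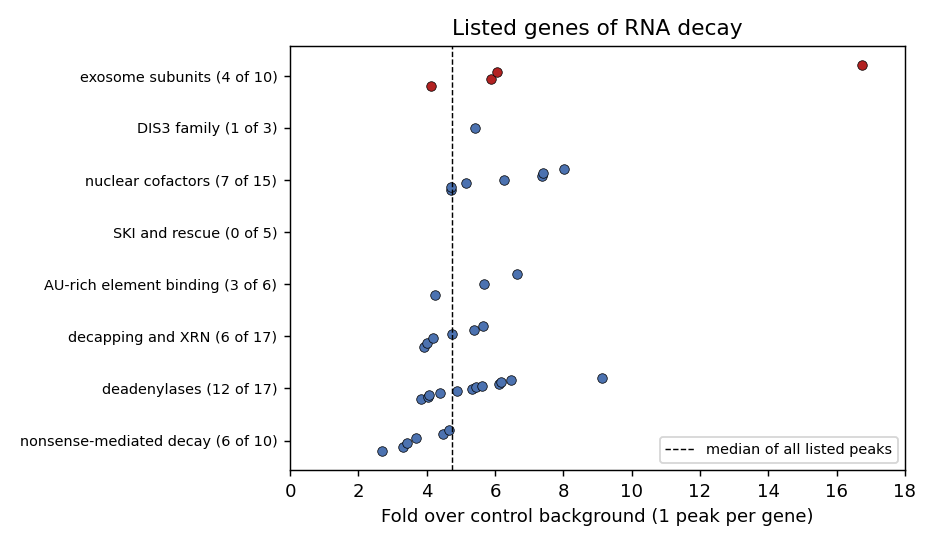
Each point is the listed peak with the highest pileup of 1 gene, placed by its fold over the control background (x), with a row for each group of RNA decay genes and the number of listed genes of all genes in brackets. The dashed line is the median of all listed peaks, 4.74. The row of deadenylases also holds other subunits of their complexes and partner proteins. Exosc8, at 16.7, is the point farthest to the right, the next is Cnot6 at 9.13, and the 6 nonsense-mediated decay genes all lie under the line.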

How the data were processed

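The series holds ATAC-seq libraries of 4 anti-IFNAR1 and 3 control IgG samples, grouped by the treatment label, and 1 deposited peak list. Which of these libraries entered each side of the list is not stated. The submitters' processing notes name mm10 and, with no role or order, MACS2 2.1.0.20150420, bedtools, DESeq2, BWA 0.7.9a and DiffBind 2.0.7. The shift of cut sites, the treatment of duplicates and any pooling are not given in the sources used here, and depth per sample is unknown. The list's signal, per the file headers, is a pileup at the summit, and the deposited fold is a ratio over the local background. Columns with damaged headers were read as the authors' −log10 p and −log10 q.

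Every pileup was a whole multiple of 0.283 (tolerance 0.005), which gave anti-IFNAR1 fragments and a depth ratio of 3.54. Fold and pileup together gave the control background, at a pseudocount of 1 on both sides and a fragment length of 236 bp. A background is the largest of the site, 1 kb, 10 kb and genome values. Tested on 2000 simulated peaks, the recovery returned the fragments of all 2000. Those peaks were made with the same formula and settings, so this checks the arithmetic only and cannot show that the caller used these settings. Intervals are exact conditional ones at 95% and cover counting error only, as PCR copies are not independent molecules.

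Peak names were matched to RefSeq (GRCm38.p6) by symbol or synonym for genes within 100 kb of the peak, for 5471 peaks. All 73 further RNA decay genes matched. Promoter sequences matched 7 of 9 members, Exosc4 and Exosc9 having none, and the Exosc9 start was taken from the peak list. The design named no test, since the list holds 1 comparison and no samples. Members and lists were chosen with earlier results of these data known. Named genes were all members, neighbours within 1 kb, listed RNA decay genes (some are not reported here), and the 3 protein-coding TSS peaks next to Exosc8 by fold on each side. Alternatives were a stricter q, a pileup filter, TSS peaks alone, assignment by start, other ranks and other distances. Python 3.11.15, pandas 2.3.3, NumPy 2.4.6 and SciPy 1.17.1 were used.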

Additional observations from a re-analysis of the deposited data

How the results depend on the processing

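The count of 3 members with a peak stayed at 3 at a q of 0.01, with TSS peaks alone and with assignment by gene start. In that last count the Exosc9 start came from its own row in the list. The count was 4 with Exosc6 added, and fell to 1, Exosc8, at a pileup of at least 20. The Exosc8 pileup of 20.07 was barely above that cut. The share of all protein-coding genes at that cut is not given here, and nothing particular to Exosc8 is read from the fall. The rank of Exosc8 was 4 among TSS peaks, 6 by q and 760 by pileup. With 1, 2 and 3 control fragments set at the site, a choice made after seeing the data, its fold was 10.5, 7.02 and 5.27, which follows from the arithmetic of the fold. The median fold of the member peaks was 6.05 and was 5.96 both without Exosc8 and with Exosc6 added. The number of members with a shared start was 4 at 500 bp, 1 kb and 2 kb. The further RNA decay genes with a peak numbered 31 to 35. No paired analysis was possible because the file holds no column per sample. The limits are the few control fragments, from 0 to 3 at each subunit site, and the lack of values per mouse.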
